A study of Mus musculus with 20 samples.

Results

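The Ccdc genes are those whose symbol is Ccdc, a number and at most 1 further letter. Of the 45705 genes in the expression table, 143 carried such a symbol, each once, and all 143 were protein coding in GENCODE vM21 and lay on 20 chromosomes. The question asked of them was which are restricted to neural stem cells (NSC) and which are shared by NSC and 4 kinds of intermediate progenitor. In these data 25 Ccdc genes, 19.7% of the 127 tested, were higher in NSC than in the mean of the progenitors, as were 1.96% of all genes tested, none passed the test for being lower, and 13 of those 25 belong to the motile axoneme. In all 5 populations 54 Ccdc genes were detected, 7 of them among the 25. That is 37.8% of the 143, against 21.7% of all genes and 42.3% of protein-coding ones.

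A coiled coil is a bundle of alpha helices wound around each other, and "coiled-coil domain containing" is a name given by sequence alone, so the Ccdc symbols collect proteins of unrelated work. Many are building parts of motile cilia, the beating microtubule hairs of ependymal cells, the multiciliated cells that line the brain ventricles. Others act at centrioles and in the deuterosome, where multiciliated cells make their many basal bodies, and others again in splicing, ribosomes, endosomes, mitochondria or signalling. NSC of the subventricular zone reach the ventricle with a thin process that bears a single primary cilium.

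All cells came from the periventricular zone of Swiss Webster mouse pups at postnatal day 5, with the male and female pups of a litter pooled. They were stained for 4 surface antigens, CD133 (prominin 1), LeX (CD15), CD140a (the PDGF receptor alpha) and NG2, and sorted into NSC, which were CD133 and LeX positive and CD140a and NG2 negative, and into the progenitors PFMP, GRP3, BNAP/GRP1 and GRP2/MP3. Each of the last pair combines progenitor types that share an antigen profile. Every population was collected in 4 batches, which gives 20 polyA RNA libraries, 4 from each population, and NSC 3 below means the NSC library of batch 3. Expression was deposited as RPKM, which scales reads by gene length and by library depth.

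Several libraries stood apart, and each bears on the values below. The 5 libraries of batch 3 resembled each other more than those of any other batch, with a median correlation across genes of 0.967 against 0.743 to 0.808, and all 5 held Scgb1a1, a secretory protein of airway epithelium, at 839 to 965 RPKM, while the other 15 libraries had at most 13.6. In the 54 shared Ccdc genes the median range over the 4 progenitors was 0.39 on the log2(RPKM + 1) scale in batch 3 and 1.29 to 1.75 in the other batches. Library BNAP/GRP1 4 had the lowest depth, 0.0395 of that of BNAP/GRP1 1 as estimated from the steps between low values, and a median gene level of 8.30 RPKM, where no other library passed 2.02; 142 of the 143 Ccdc genes reached 1 RPKM in it. Medians were also raised in GRP3 4, NSC 4 and GRP2/MP3 4, at 2.02, 1.61 and 0.977 RPKM, where 75.6%, 67.2% and 49.3% of all genes reached 1 RPKM. Absolute depth is unknown, so no counting interval is given. Results that rest on these libraries are given with and without them.

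The markers of the NSC gate and of other cells were read in the same libraries. Ependymal markers moved with NSC: 5 of 6 (Foxj1, Tmem212, Rarres2, Mia, Enkur and S100b were the list) were called higher there, and their summed level was 463 to 6312 RPKM in NSC and 3.05 to 578 in the progenitors. Of 8 markers of NSC and astroglia none was called in either direction, and of 4 choroid plexus markers tested 1, Folr1, was called higher in NSC. In bulk libraries more cells of a type and more RNA in each cell cannot be told apart.

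A filter kept genes that reached 1 RPKM in 4 or more libraries, and 127 of the 143 Ccdc genes met it and were tested among 27614 genes. The other 16 stayed at or under 2.69 RPKM in every library except BNAP/GRP1 4. In limma's moderated test on log2(RPKM + 1), 25 Ccdc genes were higher in NSC than in the mean of the 4 progenitors (adjusted p under 0.05 and a log2 fold change above 0.25), which is 19.7% of those tested, where 540 of all genes tested, or 1.96%, passed. Of the 25, 9 had fewer than 4 progenitor libraries at 1 RPKM and so passed the filter only with the help of NSC. None of the 127 was lower in NSC in the same test, where 6 of all genes, or 0.0217%, were, and at an unadjusted p under 0.05 the members split into 43 higher and 2 lower, against 5.96% higher and 0.916% lower of all genes tested. With library weights estimated from the data 1 member, Ccdc115, was called lower (log2 fold change -1.39, adjusted p = 0.0126), as were 1.66% of all genes tested. The log2 fold changes of the 25 ran from 2.20 to 8.57, and the median over all 127 was 0.40, against -0.07 over all genes tested.

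**Figure D1:**
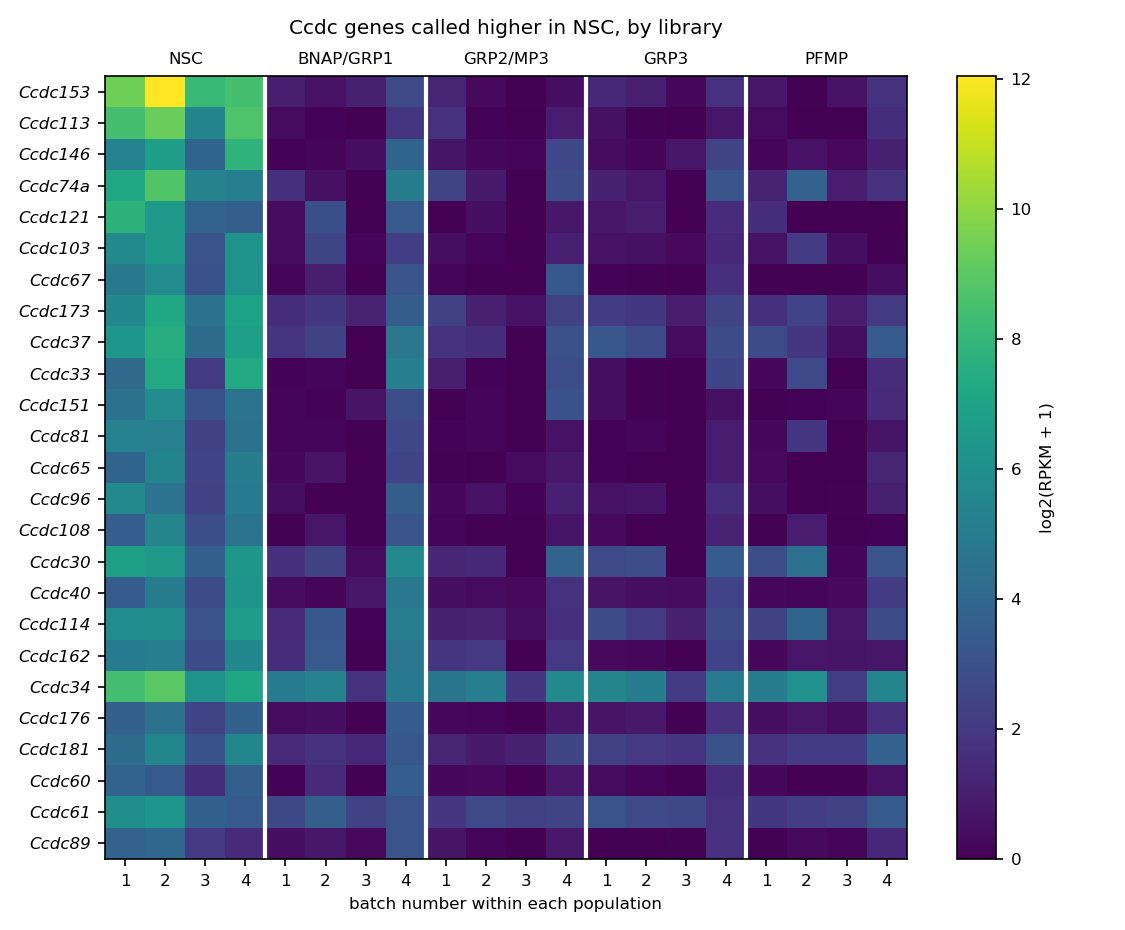
Level of each of the 25 Ccdc genes called higher in NSC (rows, largest log2 fold change at the top) in each of 20 libraries (columns, grouped by population and numbered by batch), as log2(RPKM + 1) in colour. The NSC columns are brighter than the progenitor columns in nearly every row, NSC 3 is the dimmest NSC column for 21 of the 25 genes, and BNAP/GRP1 4 is the brightest progenitor column for 19.

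The motile axoneme supplied the largest share. Of the 15 Ccdc genes measured on the axoneme list, 13 were higher in NSC, with a median log2 fold change of 3.72 over the 15. Ccdc153, a subunit of the nexin-dynein regulatory complex that links neighbouring doublet microtubules (chromosome 9, 44240676 to 44247306 in GRCm38), was at 676, 4201, 279 and 357 RPKM in NSC 1 to 4. Across 16 progenitor libraries it ran from 0.0483 through a median of 0.831 to 5.35 RPKM, the last in BNAP/GRP1 4. No progenitor library came near the lowest NSC library, and the log2 fold change was 8.57 ± 0.58 (SE, adjusted p = 5.69e-08).

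Ccdc113, a ciliary protein that works with Ccdc96 (chromosome 8, 95534085 to 95558890), gave 352, 625, 42.2 and 421 RPKM in NSC. In the progenitors it had a median of 0.183 and a highest value of 2.46 RPKM, and it was listed at 0 in all 4 progenitor libraries of batch 3. The groups did not overlap, and on the log2 scale Ccdc113 rose by 7.46 ± 0.58 (adjusted p = 4.07e-07). Its partner Ccdc96 was at 50.4, 22.6, 3.99 and 30.1 RPKM in NSC and reached 10.8 in BNAP/GRP1 4 but no more than 1.95 in any other progenitor library. The NSC 3 value therefore lay inside the progenitor range for Ccdc96, whose log2 fold change was 3.72 ± 0.61 (adjusted p = 0.000924).

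Of the genes for the attachment of dynein arms, Ccdc103, Ccdc151 and Ccdc114 were called higher in NSC. Ccdc103, which dynein arms need for their assembly and attachment, was at 52.7, 91.8, 7.47 and 72.8 RPKM in NSC and at a median of 0.418 and a highest value of 4.70 in the progenitors. Ccdc151 and Ccdc114 are both subunits of the outer dynein arm docking complex, but their progenitor levels differed. Ccdc151 (chromosome 9, 21989871 to 22002634) was at 22.2, 55.9, 7.16 and 23.0 RPKM in NSC against a progenitor median of 0.141 and a highest value of 7.09, in GRP2/MP3 4, so the groups stopped just short of each other. Ccdc114 was at 57.0, 59.2, 7.93 and 95.0 RPKM in NSC but had a progenitor median of 2.69 and reached 34.1 in BNAP/GRP1 4 and 13.9 in PFMP 2, above NSC 3. Log2 fold changes were 4.58 ± 0.59 for Ccdc103, 3.87 ± 0.61 for Ccdc151 and 3.32 ± 0.74 for Ccdc114 (adjusted p = 6e-05, 0.000533 and 0.0154).

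The ruler pair of the axoneme, Ccdc39 and Ccdc40, which set the spacing of arms and regulatory complexes along the doublets, was less even. Ccdc40 gave 10.3, 33.2, 5.73 and 74.6 RPKM in NSC and a progenitor median of 0.356. It reached 26.9 RPKM in BNAP/GRP1 4, above NSC 1 and NSC 3, and passed the test (log2 fold change 3.41 ± 0.74, adjusted p = 0.0127). Ccdc39 gave 14.5, 16.7, 2.30 and 146 RPKM in NSC and a progenitor median of 2.15. It reached 20.8 RPKM in BNAP/GRP1 4, above NSC 1, NSC 2 and NSC 3, and did not pass, at 2.52 ± 0.76 (adjusted p = 0.125). Both were higher in NSC in 16 of 16 comparisons with a progenitor library of the same batch. With the batch as a block Ccdc39 passed too (adjusted p = 0.000586), and it also passed without BNAP/GRP1 4, without NSC 3 and without batch 3, with adjusted p from 0.000411 to 0.982 over all alternatives tried. In vM21, 16.9% of the exon bases of Ccdc39 overlap Ttc14 on the opposite strand, and whether reads were assigned by strand is not given in the sources used here.

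The remaining axonemal genes called were Ccdc65, a further subunit of the nexin-dynein regulatory complex, Ccdc37 (now Cfap100), Ccdc108 (now Cfap65), Ccdc173, Ccdc181 and Ccdc176 (now Bbof1, a basal body orientation factor). Ccdc173 and Ccdc181 kept a low level in the progenitors. Ccdc173 was at 47.1, 144, 21.8 and 124 RPKM in NSC and between 0.525 and 10.7 RPKM in the progenitors, with a median of 2.84, and its groups did not overlap (log2 fold change 4.24 ± 0.54, adjusted p = 5.27e-05). Ccdc65 and Ccdc108 had progenitor medians of 0.145 and 0.0656 RPKM, under 1 RPKM in all but 2 progenitor libraries each, and NSC means of 23.3 ± 17.4 and 20.8 ± 16.2 RPKM (SD, n = 4). Of the 143 Ccdc genes, 26 share over 10% of their exon bases or of their 50-base stretches with another locus, and among the 25 this holds only for Ccdc176, of whose exon bases 25.3% overlap Aldh6a1 on the opposite strand. Ccdc63 was the only other member of the axoneme list not called. It was at 0.0440, 0.189, 0.00942 and 5.26 RPKM in NSC and reached 42.4 RPKM in BNAP/GRP1 4. Ccdc42b (now Cfap73) is not on that list and was not tested. It was at 0.209, 1.89, 0 and 0.104 RPKM in NSC and reached 3.75 RPKM in BNAP/GRP1 4.

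Beside the Ccdc genes, 13 of 15 partner genes of the axoneme tested and 6 of 9 multiciliation genes were called higher in NSC. Lrrc48, the Drc3 subunit of the regulatory complex, rose by 6.21 ± 0.71 (adjusted p = 1.35e-05), and Foxj1, the transcription factor of motile ciliogenesis, by 5.80 ± 0.63 (adjusted p = 7.35e-06), both as log2 fold changes. Myb and Ccno, which act early in multiciliation, had 3.83 ± 0.58 and 4.14 ± 0.65. Rfx3, Trp73 and Gmnc, also on the multiciliation list, did not pass, at 1.49 ± 0.70, 1.68 ± 0.50 and 0.64 ± 0.45 (adjusted p = 0.699, 0.12 and 1).

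Centriole and deuterosome genes were split. Of 16 tested 3 were higher in NSC, none lower, and 4 were detected in all 5 populations. Ccdc67 (now Deup1), the protein that builds the deuterosome, was at 28.3, 54.3, 7.27 and 68.6 RPKM in NSC. It was under 1 RPKM in every progenitor library outside batch 4, and at 8.03, 8.82, 2.14 and 0.390 RPKM in BNAP/GRP1 4, GRP2/MP3 4, GRP3 4 and PFMP 4 (log2 fold change 4.32 ± 0.67, adjusted p = 0.000473). Ccdc146, a centriolar and microtubule protein, was at 37.7, 104, 13.7 and 227 RPKM in NSC and at a progenitor median of 0.359, and BNAP/GRP1 4, at 13.8, was level with NSC 3 (log2 fold change 5.03 ± 0.72, adjusted p = 0.00018). Ccdc61, found at basal bodies, was at 62.2, 78.2, 12.4 and 9.51 RPKM in NSC and was detected in every progenitor, with a median of 4.82 and a highest value of 11.3 RPKM (log2 fold change 2.29 ± 0.50, adjusted p = 0.0133). Here NSC 4, at 9.51, lay inside the progenitor range.

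Ccdc78, a deuterosome-associated protein, and Ccdc13, of the centriolar satellites, missed the threshold although each was highest in NSC within all 4 batches. Ccdc78 was at 7.12, 31.7, 1.97 and 35.0 RPKM in NSC and reached 18.0 RPKM in GRP3 4 (log2 fold change 2.55 ± 0.76, adjusted p = 0.118). Ccdc13 was at 5.91, 28.7, 5.63 and 29.7 RPKM in NSC and reached 24.0 RPKM in BNAP/GRP1 4 (log2 fold change 2.78 ± 0.77, adjusted p = 0.0759). With batch as a block both passed (adjusted p = 0.00281 and 0.000502), and over all alternatives the adjusted p ran from 0.000454 to 1 for Ccdc78 and from 0.000247 to 1 for Ccdc13. Ccdc14, a satellite protein, had most of its NSC level in NSC 1, at 16.3 RPKM against 1.5 to 3.34 in the other NSC libraries. Ccdc28b, a modifier gene of Bardet-Biedl syndrome, ran from 13.3 to 331 RPKM in NSC and from 10.2 to 698 RPKM in the progenitors. Neither Ccdc14 (log2 fold change 0.60 ± 0.62) nor Ccdc28b (0.02 ± 1.13) passed. The rest of the list, Ccdc138, Ccdc92, Ccdc68, Ccdc18, Ccdc66, Ccdc77, Ccdc15, Ccdc57 and Ccdc120, had log2 fold changes between -0.18 and 2.04, none of them called in the main fit. Ccdc138 and Ccdc92 were called with the batch as a block (4.14% of all genes tested). Ccdc138, Ccdc68 and Ccdc18 were called with library weights (8.09%).

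Of the 25, 9 belong to no role list. Ccdc74a (chromosome 16, 17646470 to 17650738) was at 147, 437, 40.3 and 35.2 RPKM in NSC and had a progenitor median of 1.19, with 33.0 in BNAP/GRP1 4, just under NSC 4 (log2 fold change 5.0 ± 0.84, adjusted p = 0.00112). Ccdc121 was at 222, 91.2, 13.1 and 11.5 RPKM in NSC and at most 9.44 in the progenitors (log2 fold change 4.65 ± 0.70, adjusted p = 0.000363). In both the NSC values fell into a high pair, NSC 1 and NSC 2, and a low pair, NSC 3 and NSC 4. Ccdc33 was uneven in another way, at 16.8, 157, 3.07 and 160 RPKM in NSC and 35.2 RPKM in BNAP/GRP1 4, with a progenitor median of 0.180 (log2 fold change 4.14 ± 0.96, adjusted p = 0.0217). Ccdc34 was by far the most abundant of the 25 outside NSC, at 343, 493, 71.4 and 138 RPKM in NSC, at 25 to 66.8 in the 12 progenitor libraries of batches 1, 2 and 4, and at 2.29 to 3.49 in the 4 of batch 3 (log2 fold change 3.24 ± 0.82, adjusted p = 0.0413). Even so, every NSC library was above every progenitor library. Ccdc81, Ccdc30, Ccdc162, Ccdc60 and Ccdc89 completed the 9, with log2 fold changes between 2.20 and 3.87.

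The same genes varied within NSC. Of the 25, 13 had their highest NSC value in NSC 2, 7 in NSC 4 and 5 in NSC 1, and 21 had their lowest in NSC 3, where the level was at a median of 0.148 of the mean of the other 3. All 4 NSC libraries reached 1 RPKM for each of the 25. Separation from the progenitors was complete for 8, Ccdc153, Ccdc113, Ccdc173, Ccdc103, Ccdc151, Ccdc34, Ccdc121 and Ccdc74a, whose 4 NSC libraries were all above all 16 progenitor libraries (0.587% of all genes tested), and in no Ccdc gene were they all below (0.0253%). Without BNAP/GRP1 4, a comparison chosen after seeing the data, 17 of the 25 were separated in this way (1.26% of all genes tested). Within a batch, NSC was above all 4 progenitors in all 4 batches for 32 Ccdc genes, 23 of them among the 25 (3.28% of all genes tested), and below them in all 4 batches for none (0.529%). The exceptions were Ccdc61 and Ccdc89, higher in 15 and 14 of 16 comparisons.

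**Figure D2:**
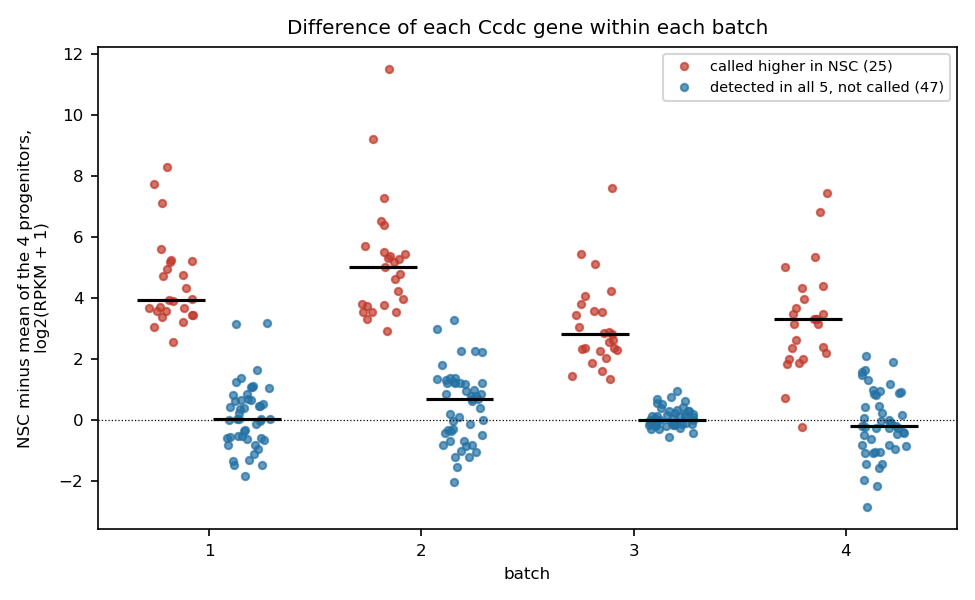
Difference between NSC and the mean of the 4 progenitors of the same batch, in log2(RPKM + 1), for the 25 Ccdc genes called higher in NSC (red) and the 47 detected in all 5 populations and not called (blue), 1 point a gene, with medians as bars. The red medians are 3.95, 5.03, 2.82 and 3.30 in batches 1 to 4, and the blue ones stay between -0.21 and 0.69.

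Taken batch by batch, the 25 had median differences between NSC and the progenitor mean of 3.95, 5.03, 2.82 and 3.30 in batches 1 to 4 on the log2(RPKM + 1) scale, and all 25 were positive in batches 1, 2 and 3 and 24 in batch 4. The 25 were called on these same libraries, so their signs are a description only. The smallest median was that of batch 3, whose libraries resembled each other most. With the batch as a block, 36 Ccdc genes were higher in NSC (4.14% of all genes tested), among them all 25. The 11 added were Ccdc39, Ccdc13, Ccdc78, Ccdc92, Ccdc138, Ccdc24, Ccdc148, Ccdc157, Ccdc136, Ccdc80 and Ccdc170. Without batch 3 there were 25, 24 of them the same, and without NSC 2 only 14 remained, all from the 25. Over all genes tested 671 of 26663 and 276 of 27342 passed in these fits, against 540 of 27614 in the main fit. Leaving out batch 1 or batch 2 left 11 and 9, where 170 of 26279 and 141 of 25780 genes tested passed. Without batch 4 there were 17, where 427 of 18236 genes tested passed. Of the 17, 14 were from the 25, and Ccdc150, Ccdc138 and Ccdc13 were added. Some of those lost, such as Ccdc65, no longer met the filter.

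Against each progenitor in turn, 16 Ccdc genes were lower than NSC in PFMP (1.14% of all genes tested in that direction), 14 in GRP3 (1.04%), 17 in GRP2/MP3 (1.12%) and 12 in BNAP/GRP1 (0.76%). The 4 comparisons share the NSC libraries. The same 12, Ccdc153, Ccdc113, Ccdc146, Ccdc74a, Ccdc103, Ccdc67, Ccdc173, Ccdc81, Ccdc151, Ccdc65, Ccdc96 and Ccdc108, were lower in all 4 progenitors (0.652% of all genes tested). In Ccdc153 the log2 fold changes against NSC were -8.72 in PFMP, -8.42 in GRP3, -8.98 in GRP2/MP3 and -8.18 in BNAP/GRP1, and in Ccdc113 they were -7.50, -7.64, -7.27 and -7.41. Ccdc121 was lower in GRP2/MP3, GRP3 and PFMP and missed the threshold in BNAP/GRP1 (adjusted p = 0.0505), Ccdc37 was lower in GRP2/MP3 and PFMP, and Ccdc162 in GRP3 and PFMP. The median over all genes was 0.38 higher in BNAP/GRP1 than in NSC, which was not so in the other 3 progenitors (-0.20 to 0.05). With the batch as a block the counts were 29, 29, 33 and 23, and 23 were lower in all 4 (1.47% of all genes tested); the BNAP/GRP1 count was also 23 without BNAP/GRP1 4, and 3 without NSC 2.

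No Ccdc gene was higher than NSC in any progenitor (0.0109% of all genes tested in GRP3, 0.00362% in PFMP and 0 in the others). At an unadjusted p under 0.05 there was 1, Ccdc174 in GRP3, where 3.61% of all genes tested were higher in some progenitor. With library weights 4 passed, Ccdc115, Ccdc174, Ccdc186 and Ccdc149, where 11.3% of all genes tested passed. Among the 6 pairs of progenitors no Ccdc gene differed at an adjusted p under 0.05, nor did any gene at all (0% of all genes tested). At an unadjusted p under 0.05 the members were Ccdc110, Ccdc112, Ccdc122, Ccdc184 and Ccdc88a, each in 1 pair, where 7.36% of all genes tested passed in some pair. With library weights 10 members passed, and 15.4% of all genes tested did. Ccdc88a encodes girdin, an actin-binding signalling protein, and was at 14.2, 8.22, 19.4 and 15 RPKM in BNAP/GRP1 and at 40.8, 67.4, 19.7 and 70.6 RPKM in GRP3. Outside batch 3, where the libraries were level, every GRP3 value was above every BNAP/GRP1 value (log2 difference of BNAP/GRP1 from GRP3 -1.63 ± 0.72, adjusted p = 0.95).

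A second measure of restriction was detection, taken as 1 RPKM or more in 3 or 4 of a population's libraries. By it 25 of the 143 Ccdc genes, or 17.5%, were detected in NSC only, against 2.68% of all 45705 genes and 3.53% of the 21519 that are protein coding. Another 26 were detected in NSC and some progenitors (18.2%, against 5.80% of all genes) and 54 in all 5 populations (37.8% against 21.7%). Of the rest 8 were detected in progenitors only (5.59% against 8.14%). The other 30 were detected in none (21.0%, against 61.7% of all genes and 36.6% of protein-coding ones). Of the 25 detected in NSC only, 15 were among the 25 called higher there, and the others called were 3 of the 26 and 7 of the 54. The classes turned on low values: Ccdc153, the most NSC-enriched of all, was not in the NSC-only class because its third-highest GRP3 library was at 1.09 RPKM, and Ccdc74a because that of PFMP was at 1.25. Just inside the class were Ccdc18, whose third-highest PFMP library was at 0.878 RPKM, and Ccdc150, whose third-highest NSC library was at 1.14. Just outside it were Ccdc68, at 1.04 RPKM in GRP2/MP3, and Ccdc15, at 0.970 in NSC. The NSC-only count was 16 when 2 of 4 libraries sufficed (2.52% of all genes) and 35 when all 4 had to pass (2.72%). It was 16 when batch 3 was left out and 2 of the 3 remaining libraries sufficed (2.71%).

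**Figure D3:**
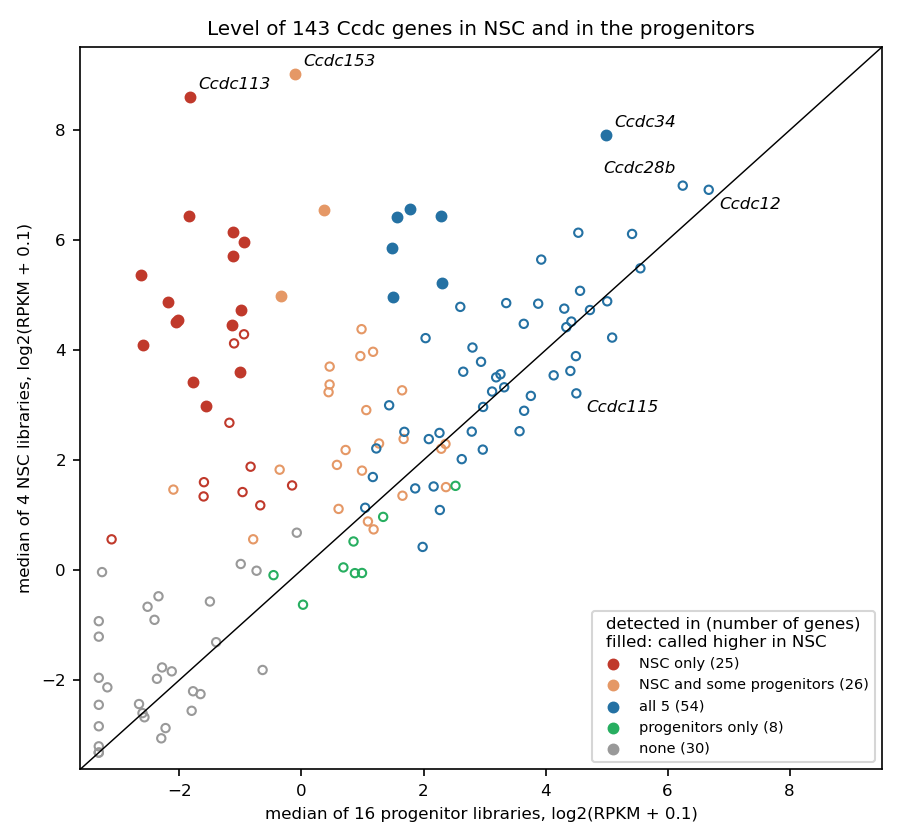
Each of 143 Ccdc genes by its median over 16 progenitor libraries (horizontal) and over 4 NSC libraries (vertical), both as log2(RPKM + 0.1), coloured by the populations that detected it and filled where called higher in NSC. Of the shared genes (blue) 7 are filled, Ccdc34 the highest of them, the others lie on both sides of the line of equal levels, and Ccdc153 and Ccdc113 lie farthest above it.

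The genes detected in all 5 populations were 54, or 37.8% of members, against 21.7% of all genes and 42.3% of protein-coding ones. Of these 54, 37 were at 1 RPKM or above in all 20 libraries. Aside from the 7 called, Ccdc173, Ccdc37, Ccdc30, Ccdc114, Ccdc34, Ccdc181 and Ccdc61, none of the 54 passed the test. The largest differences among those not called were of Ccdc80, Ccdc132, Ccdc136 and Ccdc163, with log2 fold changes of 2.09, 1.60, 1.59 and 1.24, and with the batch as a block Ccdc80 and Ccdc136 passed (limma, adjusted p = 0.0441 and 0.0138). Over the 54 the median log2 fold change was 0.17, 31 were above 0 and 23 below it, and 43 were within 1 of it. A value that missed the threshold does not show that levels were equal, and the spread between batches was wide.

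The highest shared gene by its lowest population median was Ccdc12, a splicing factor. It was at 44.7, 204, 81.1 and 160 RPKM in NSC, 107, 138, 89.6 and 52.9 in BNAP/GRP1, 265, 65.3, 84.1 and 153 in GRP2/MP3, 137, 83.2, 97.0 and 140 in GRP3 and 43.1, 253, 91.7 and 176 in PFMP. The 5 populations overlapped throughout (log2 fold change -0.07 ± 0.51), and in batch 3 all 5 lay between 81.1 and 97.0 RPKM. The next were Ccdc28b, Ccdc23 (now Svbp, which binds the vasohibin tubulin carboxypeptidases), Ccdc124, Ccdc34, Ccdc55, Ccdc107, Ccdc59, Ccdc9 and Ccdc53. Ccdc34 apart, none of them passed the test (log2 fold changes from -0.67 for Ccdc9 to 0.97 for Ccdc53).

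Genes of trafficking complexes were shared without exception, 8 of 8, and none was called. With library weights Ccdc53 (adjusted p = 0.0216) and Ccdc132 (now Vps50) were called higher in NSC. In the same fit Ccdc115 was lower in NSC and higher in BNAP/GRP1 and GRP3, and Ccdc186 was higher in GRP3. Ccdc53 (now Washc3), a subunit of the WASH complex that nucleates actin on endosomes, was at 37.8, 139, 29.5 and 19.9 RPKM in NSC and at 6.53 to 50.5 RPKM in the progenitors. Ccdc47, a protein of the endoplasmic reticulum that helps multipass membrane proteins insert, was at 119, 25.3, 18.8 and 20.4 RPKM in NSC and at 14.9 to 109 RPKM in the progenitors (log2 fold change 0.13 ± 0.60). Ccdc22 and Ccdc93, which with the COMMD proteins form the CCC complex of endosomal recycling, had log2 fold changes of -0.59 ± 0.64 and -0.31 ± 0.46. All 13 CCC and retriever partner genes tested were likewise shared, and none was called. For Ccdc22, 86.3% of exon bases are also annotated to Gm36995 on the same strand, so its level is uncertain.

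RNA and ribosome genes were shared in 10 of 12 cases, and none was called. Ccdc124, which binds idle ribosomes, was at 10.2, 110, 57.5 and 32.0 RPKM in NSC and at 6.38 to 167 RPKM in the progenitors (log2 fold change -0.08 ± 0.75). Mitochondrial members were shared in 4 of 5 cases, with none called, and the 2 most abundant were Ccdc90b (log2 fold change 0.79 ± 0.47) and Ccdc58 (-0.35 ± 0.62). Of 14 signalling and secreted members, 13 were tested, 6 were shared and none was called, though Ccdc80 passed with the batch as a block and both Ccdc80 and Ccdc3 with library weights. Ccdc6, known as a fusion partner of RET in thyroid cancer, was high in batch 4 alone, at 188 RPKM in NSC, 139 in PFMP, 219 in GRP3, 166 in GRP2/MP3 and 24.6 in BNAP/GRP1, while no library of batches 1 to 3 passed 18.7. In every population the batch 4 library was the highest.

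The testis and sperm list was the emptiest. Of its 15 members 11 were detected in no population, 8 could be tested and none was called, though Ccdc136 passed with the batch as a block and Ccdc87 with library weights and without BNAP/GRP1 4. The remaining 58 members on no list held 9 of the calls among 50 tested.

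No fall in NSC passed the test without library weights. The 3 with the lowest log2 fold changes were Ccdc115, an assembly factor of the vacuolar proton pump, at -0.97 ± 0.44, Ccdc174 at -0.90 ± 0.41 and Ccdc50, a ubiquitin-binding protein, at -0.74 ± 0.60, and none passed (adjusted p = 0.634, 0.633 and 1), while with library weights Ccdc115 did (adjusted p = 0.0126). Ccdc115 was at 6.75, 9.81, 25.5 and 8.53 RPKM in NSC, and at 52.8, 13.1, 28.9 and 16.1 in BNAP/GRP1, 18.8, 46.4, 23.9 and 18.7 in GRP2/MP3, 20.8, 21.2, 31.8 and 25.5 in GRP3 and 8.25, 25, 26.0 and 18.0 in PFMP. It was lower in NSC than in the progenitor of the same batch in 15 of 16 comparisons, and the ranges of NSC and progenitors overlapped. Of the 50-base stretches of Ccdc115, 15.5% also occur at another locus. The 8 detected in progenitors only (5.59% of members, against 8.14% of all genes) were Ccdc142, Ccdc120, Ccdc88b, Ccdc69, Ccdc149, Ccdc85a, Ccdc38 and Ccdc82, with log2 fold changes between -0.63 and -0.17. For Ccdc142, 63.1% of exon bases are also annotated to another gene on the same strand, so its level is uncertain. In Ccdc38 13.2% of exon bases overlap Snrpf on the opposite strand, and 10.8% of the 50-base stretches of Ccdc82 also occur at another locus.

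**Figure D4:**
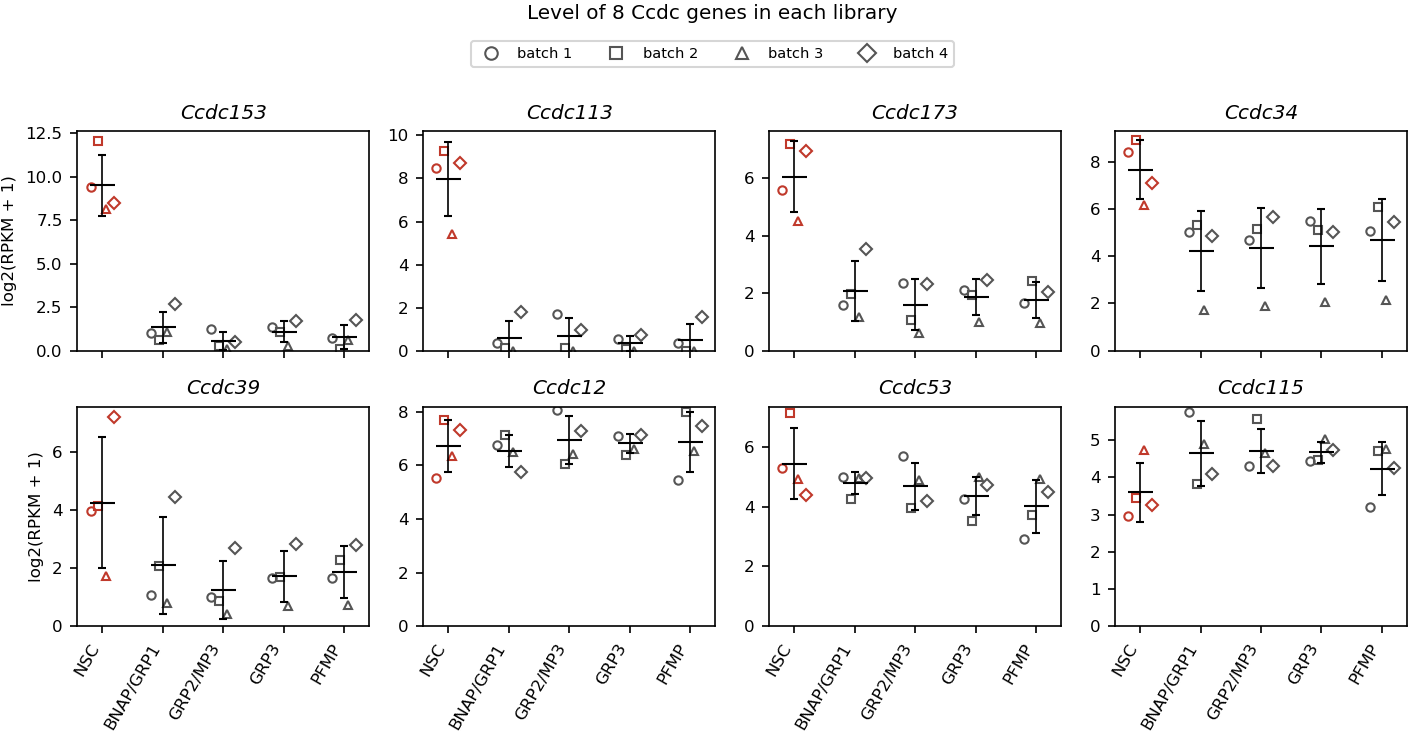
Level of 8 Ccdc genes, as log2(RPKM + 1), in each library by population, with NSC in red, the batch by symbol, and the mean ± SD of 4 libraries in black. Ccdc153, Ccdc113 and Ccdc173 separate NSC from all progenitors, Ccdc34 does so from a high progenitor level, Ccdc39 has NSC 4 alone at 146 RPKM, and Ccdc12, Ccdc53 and Ccdc115 overlap.

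The 25 called genes were also summed by library, to set them beside the ependymal markers. Their sum was 2464, 7167, 604 and 2237 RPKM in NSC 1 to 4, where the 6 ependymal markers summed to 1715, 6312, 463 and 5433 RPKM. In the progenitors the 25 summed to 12.9 to 393 RPKM in BNAP/GRP1, to between 9.64 and 132 in GRP2/MP3, and to between 14.6 and 142.6 in GRP3 and PFMP. NSC 2 was thus the highest and NSC 3 the lowest NSC library on both sums, while NSC 1 was above NSC 4 on the Ccdc sum and below it on the marker sum. Ccdc153 alone gave 676, 4201, 279 and 357 RPKM of the Ccdc sum in NSC 1 to 4. The exception among progenitors was GRP2/MP3 4, whose ependymal markers summed to 578 RPKM, above NSC 3 and mostly from Rarres2 at 436, while the 25 Ccdc genes summed to 132. Foxj1 itself was at 141, 352, 34.3 and 33.1 RPKM in NSC and at most 9.42 in a progenitor. The part of ependymal cells in the NSC level of these Ccdc genes was not tested.

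**Figure D5:**
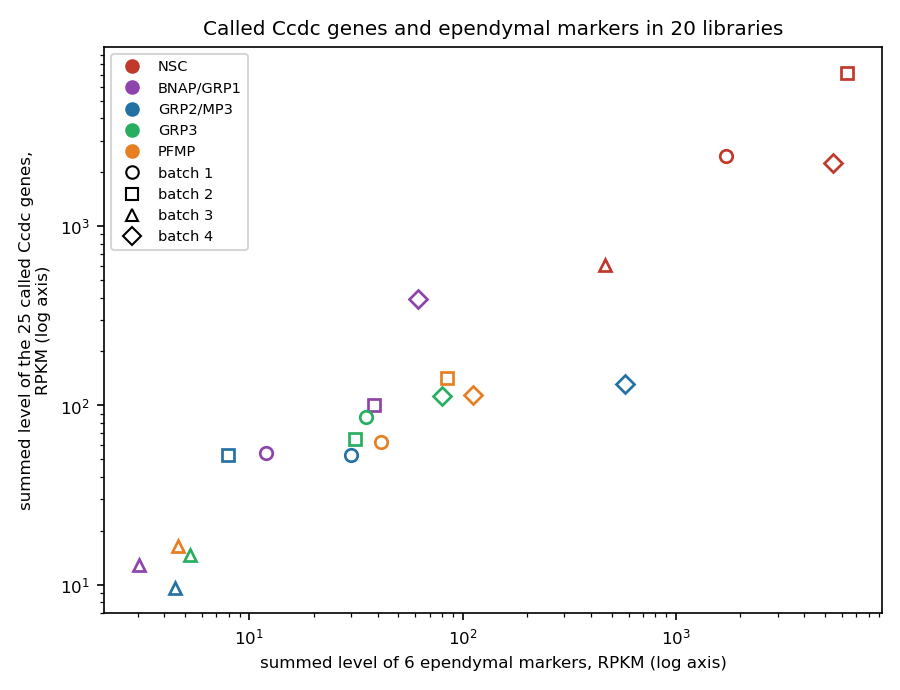
Summed level of 6 ependymal markers (horizontal) and of the 25 Ccdc genes called higher in NSC (vertical) in RPKM on log axes, 1 point for each of 20 libraries, coloured by population and shaped by batch. The 4 NSC libraries lie at the upper right, from 604 RPKM of the called genes up, and the progenitor libraries of batch 3 lie lowest.

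Promoter windows of 300 bases, 250 before to 50 after a RefSeq start site in GRCm38.p6, were given for 116 of the 143 Ccdc genes and for 20 of the 25. They were searched on both strands for letters bound by the factors that drive motile ciliogenesis, the RFX proteins and Foxj1. The X-box of RFX, read as GTTNCC, 2 free bases and GGNAAC, was in 1 of 24 windows of the 25 (4.17%), in 0.847% of those of the other members and in 0.451% of 32851 windows over all genes. A looser form with GTNNCC and GGNNAC, which includes the first, was in 12.5%, 4.24% and 1.88%, the shorter RFX letters GTTGCCA in 16.7%, 8.47% and 4.38%, and the forkhead letters TGTTTAC in 8.33%, 2.54% and 3.65%. With 24 windows these shares rest on 1 to 4 windows each. The windows that held a full or loose X-box are shown because they belong to 3 genes that rose in NSC, with the match in capitals, and that of Ccdc153 is shown beside them as the gene with the largest change and no match. The match of Ccdc151 (chr9:22002585-22002884, minus strand) lies from -34 to -21, counted from the start site as 0, that of Ccdc67 (chr9:15627797-15628096, minus strand) from -87 to -74, and that of Ccdc74a (chr16:17646220-17646519, plus strand) from -6 to 7. The window of Ccdc153 is chr9:44240427-44240726 on the plus strand.
Ccdc151: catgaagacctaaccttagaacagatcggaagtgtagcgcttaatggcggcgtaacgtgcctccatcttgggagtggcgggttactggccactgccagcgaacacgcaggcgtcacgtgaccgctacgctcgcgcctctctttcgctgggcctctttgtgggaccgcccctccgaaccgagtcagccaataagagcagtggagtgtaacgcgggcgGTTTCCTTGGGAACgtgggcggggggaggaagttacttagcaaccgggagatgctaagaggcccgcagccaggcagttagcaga
Ccdc67: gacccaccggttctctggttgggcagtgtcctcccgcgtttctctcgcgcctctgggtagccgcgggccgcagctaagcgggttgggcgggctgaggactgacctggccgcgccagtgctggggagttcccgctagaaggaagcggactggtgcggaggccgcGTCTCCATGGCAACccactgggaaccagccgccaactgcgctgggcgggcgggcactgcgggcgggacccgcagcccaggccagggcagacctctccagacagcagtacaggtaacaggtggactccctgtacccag
Ccdc74a: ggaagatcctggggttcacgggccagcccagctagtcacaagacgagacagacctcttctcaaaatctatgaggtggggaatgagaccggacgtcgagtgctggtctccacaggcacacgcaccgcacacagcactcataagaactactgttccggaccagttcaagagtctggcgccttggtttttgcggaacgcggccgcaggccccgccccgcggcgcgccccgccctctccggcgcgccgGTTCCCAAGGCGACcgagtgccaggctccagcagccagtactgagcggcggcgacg
Ccdc153: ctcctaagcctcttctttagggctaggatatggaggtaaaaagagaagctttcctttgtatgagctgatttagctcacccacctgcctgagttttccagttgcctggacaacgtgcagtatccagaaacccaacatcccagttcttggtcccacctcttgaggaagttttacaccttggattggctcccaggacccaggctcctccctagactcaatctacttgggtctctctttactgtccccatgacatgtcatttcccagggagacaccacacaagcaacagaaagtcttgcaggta
The levels of these 4 genes in the progenitors had medians of 0.141, 0.0623, 1.19 and 0.831 RPKM in the same order. A match is a run of letters and not a shown binding site, and no match says only that these letters are not in this window.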

How the data were processed

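Periventricular cells of postnatal day 5 mice were sorted into 5 populations in 4 batches, and amplified polyA RNA was sequenced. Per the labels and the methods of the study, cutadapt 3.4 trimmed the reads, STAR 2.6.1 placed them on GRCm38, Salmon 1.9.0 gave the abundances, and the authors deposited 1 table of RPKM values, which are normalized for length and depth. The annotation release, the gene lengths and the strand setting are not given in the sources used here. Another 26 columns of the table are empty and were not used.

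Groups and batches were taken from the labels. Values were transformed to log2(RPKM + 1), and genes that reached 1 RPKM in 4 or more of the 20 libraries were fitted together, without a batch term, with limma 3.58.1 in R 4.3.3 (lmFit, then eBayes with a trend). Adjusted p-values are Benjamini-Hochberg values over all 27614 genes tested, and all tests are two-sided. The deposited values are not counts, so no count model was fitted. Libraries of the same number share a batch by their labels. Deviations from the population means correlated within batches 1 to 4 with medians of 0.337, 0.262, 0.769 and 0.581, and between batches with -0.254. Subtracting a mean over 4 libraries by itself pushes the value between batches below 0 only for pairs from the same population. The median between batches also covers pairs from different populations, and these kinds of pair were not taken apart. Fits with the batch as a block are given where they change a call. Nothing says more of how separate the libraries of a population are than that each batch is its own experiment.

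Named genes are the 10 largest rises in NSC, the axoneme and centriole members detected in NSC or called, the 10 shared genes with the highest lowest population median, the 2 most abundant of each other role list, the 3 largest falls, any gene called in a progenitor, and those nearest the detection threshold. Other genes are named after their values were seen. The members and lists were chosen with earlier results of these data known. Positions and exon overlaps are from GENCODE vM21, and promoter windows are from RefSeq. Alternatives tried were the pseudocount, the filter, the scaling, the prior, library weights, the batch block, each population pair alone, and leaving out each library and each batch. Leaving out batch 3 together with BNAP/GRP1 4, leaving out batch 3 under the block, and detection without BNAP/GRP1 4 were chosen after seeing the data.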

Additional observations from a re-analysis of the deposited data

Results flagged for a closer look

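Within populations of 4 libraries, 115 groups of values from 23 named Ccdc genes were searched for a library far from the other 3, and 9 were found, where chance gives about 1 in 20. Ccdc67 was far higher in the batch 4 library of 3 progenitors, with 0.390 RPKM in PFMP 4, 2.14 in GRP3 4 and 8.82 in GRP2/MP3 4, while the other libraries of each were at most 0.0434, 0.0784 and 0.115. The median gene level was raised in GRP3 4 and GRP2/MP3 4, at 2.02 and 0.977 RPKM, and was 0.00790 in PFMP 4. Ccdc146 and Ccdc33 stood out in BNAP/GRP1 4, the library of lowest depth, at 13.8 and 35.2 RPKM, against at most 0.413 and 0.158 in BNAP/GRP1 1 to 3. Ccdc34 was far lower in the batch 3 libraries of BNAP/GRP1 and GRP3, at 2.29 and 3.18 RPKM, where the other libraries had at least 28.1 and 31.4. Ccdc53 was at 18.1 RPKM in BNAP/GRP1 2 against 30.2 to 31.0 in the others, and Ccdc121 was at 1.97 RPKM in PFMP 1 against at most 0.00714. Causes were not tested.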

How the results depend on the processing

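Over 4190 repeats of single-gene results under the alternatives, 4026 kept their side of the threshold, 92 lost a call and 72 gained one. No result called in the main fit or in the alternative changed direction. Fold changes called in neither could change sign and are among the 4026. That of Ccdc28b, for example, ran from -0.67 to 0.85. In order, the counts below are Ccdc genes higher in NSC than the progenitor mean, then lower than NSC in BNAP/GRP1, GRP2/MP3, GRP3 and PFMP, which were 25, 12, 17, 14 and 16. All-gene totals are given here for the first count only, and in the main fit 540 of 27614 genes tested passed. Leaving out 1 library gave 14 to 33, 3 to 23, 10 to 25, 11 to 22 and 12 to 22. Over all genes tested 276 of 27342 passed without NSC 2 and 884 of 23132 without BNAP/GRP1 4. The lowest came without NSC 2 for each count, shared with GRP2/MP3 3 for the third and with several libraries for the last, and the highest without BNAP/GRP1 4 for the first and second and without NSC 3 for the others. Without batch 1 the counts were 11, 2, 3, 2 and 2, without batch 2 they were 9, 2, 2, 2 and 3, and without batch 4 they were 17, 10, 13, 10 and 10, fits with fewer libraries. Of all genes tested 170 of 26279, 141 of 25780 and 427 of 18236 passed there. With the replicate block they were 36, 23, 33, 29 and 29, without batch 3 and BNAP/GRP1 4 they were 34, 23, 27, 23 and 27, and without batch 3 under the block 31, 18, 27, 26 and 24. There 1143 of 27614, 1136 of 21729 and 913 of 26663 genes tested passed. With library weights they were 48, 47, 41, 46 and 35, and 8.09% of all genes tested passed. With weights 4 genes were higher in a progenitor (11.3% of all genes tested) and 10 differed between progenitors (15.4%), against 0 and 0 otherwise. Each population pair fitted alone gave 2, 10, 7 and 5. A pseudocount of 0.1 gave 20, 3, 10, 10 and 11, and no filter 21, 7, 14, 13 and 12, where 440 of 27614 and 434 of 45705 genes tested passed. The calls lost most often were Ccdc89, Ccdc34, Ccdc30 and Ccdc33. Detection in NSC only fell from 25 to 16 where 2 of 4 libraries sufficed (2.52% of all genes). It also fell to 16 where batch 3 was left out and 2 of 3 libraries sufficed (2.71%). Detection in all 5 populations, 54, ran from 28 at 5 RPKM (10.9% of all genes) to 75 at 0.5 RPKM (25.6%). The causes were not tested. Depth is not known, and a gene listed at 0 is not shown to be absent.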
